A study of Mus musculus with 49 samples.

Results

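The genes that mark glutamatergic neurons were followed here in 49 single neurons of the mouse primary somatosensory cortex. They were chosen by name and comprise Slc17a7, Neurod2 and Neurod6, which are 3 of the 9020 genes in the expression table and were all listed in it. The neurons came from wild-type mice of the CD1 strain. They had received FlashTag (FT), a dye injected into the ventricle that marks cells dividing at its surface, at E13.5 (embryonic day), and their contents were aspirated through a patch pipette in slices at postnatal day (P) 7 (Patch-seq). There was 1 condition and no control group. The cells came from several experiments, but the labels name neither the animal nor the experiment of a cell, so all cells together count as a single sample, and nothing was tested across them. FT+ cells had been picked by their brightness, so the sample holds cells labelled at 1 time of birth and not all glutamatergic neurons of the area.

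Glutamatergic neurons of the cortex release glutamate that has been loaded into synaptic vesicles by vesicular glutamate transporters. Slc17a7 encodes VGLUT1, the transporter that most cortical projection neurons use when mature, while its relative Slc17a6 encodes VGLUT2, which is prominent in the thalamus and in young neurons. Neurod2 and Neurod6 encode transcription factors of the basic helix-loop-helix (bHLH) family, which pair with E proteins and bind short DNA motifs called E-boxes. Both are turned on in the cortical excitatory lineage around the time neurons leave the cell cycle, while cortical inhibitory neurons arise outside the cortex, from another lineage.

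Slc17a7 (ENSMUSG00000070570) spans chr7:45163949-45176142 on the plus strand of GRCm38 and overlaps a microRNA gene, Mir7055, which was not in the table. Neurod2 (ENSMUSG00000038255) spans chr11:98325415-98329648 and Neurod6 (ENSMUSG00000037984) spans chr6:55677822-55681263, both on the minus strand and with no overlapping gene in GENCODE M21. All 3 are protein coding. Since their levels varied together over cells, the 250 bases before each start site are shown (RefSeq, GRCm38.p6, 5′ to 3′ on the strand of the gene), with each match to the E-box motif CANNTG, which reads alike on both strands, in capitals. The windows are chr7:45163671-45163920 (plus strand) for Slc17a7, chr11:98329646-98329895 (minus strand) for Neurod2 and chr6:55681264-55681513 (minus strand) for Neurod6.
Slc17a7: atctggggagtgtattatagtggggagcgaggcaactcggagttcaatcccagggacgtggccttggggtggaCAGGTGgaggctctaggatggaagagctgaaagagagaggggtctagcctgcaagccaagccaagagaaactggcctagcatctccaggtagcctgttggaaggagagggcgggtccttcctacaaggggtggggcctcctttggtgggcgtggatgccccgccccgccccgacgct
Neurod2: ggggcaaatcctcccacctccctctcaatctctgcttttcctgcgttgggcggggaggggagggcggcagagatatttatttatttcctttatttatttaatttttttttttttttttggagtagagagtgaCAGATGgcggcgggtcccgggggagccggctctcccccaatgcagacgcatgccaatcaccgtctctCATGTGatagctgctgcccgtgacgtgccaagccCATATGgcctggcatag
Neurod6: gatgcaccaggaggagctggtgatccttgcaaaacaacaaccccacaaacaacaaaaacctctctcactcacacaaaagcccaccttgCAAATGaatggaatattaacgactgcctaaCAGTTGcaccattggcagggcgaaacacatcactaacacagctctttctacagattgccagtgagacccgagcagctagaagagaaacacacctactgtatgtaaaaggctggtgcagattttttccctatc
The Slc17a7 window held 1 match, the Neurod2 window 3 and the Neurod6 window 2. Of 32851 promoters of this length, 66.2% held at least 1 match, 31.8% at least 2 and 12.2% at least 3. Among the 8938 of them that belong to genes in the expression table, these shares were 56.9%, 22.3% and 7.0%. A match of this kind is common and is a description of the letters, not of a bound site. The form CAGATG, searched on both strands, was present once before Neurod2 and was not in the other windows. It was found in 14.4% of all promoters and in 9.79% of those of genes in the expression table.

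The depth of a cell, recovered from the deposited values, ranged from 209850 to 35342325 reads with a median of 1240101, and the cells were sequenced in 5 library pools of 12, 9, 9, 9 and 10 cells. Levels are given in RPM, the reads of a gene scaled to a common total per cell, which are not divided by gene length, so each gene was compared with itself across cells. At the lowest depth 1 read stood for 4.77 RPM. All 6 general neuronal markers listed reached 10 RPM in 48 or 49 of the 49 cells. Mef2c, Nrgn and Camk2b, genes of maturing cortical excitatory neurons, did so in every cell. This included the 5 cells in which none of Slc17a7, Neurod2 and Neurod6 reached 10 RPM. At this limit Mef2c, Nrgn and Camk2b thus did not tell these 5 cells from the others. Of 10 listed genes of cortical excitatory neurons, 4 to 7 reached 10 RPM in each of the 5 cells. Mef2c, Nrgn and Camk2b were the most widespread of 10 listed genes of such neurons, which reached 10 RPM in 11 to 49 cells (median 36).

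Slc17a7 ranged from 0 to 397 RPM over the 49 cells, with a median of 36.99 RPM (exact 95% interval of the median 8.19 to 83.7) and quartiles of 5.41 and 120.0 RPM. Its level reached 100 RPM in 15 cells and 500 RPM in none. The highest values were 397 RPM in cell IL09 of pool 1 (491 reads), 387 RPM in cell IL07 of pool 1 (13674 reads) and 313 RPM in cell IL04 of pool 5 (219 reads). In 4 cells there was no read of it, which allowed a level of up to 3.32 RPM in IL07 of pool 2, 5.95 RPM in IL01 of pool 3, 6.08 RPM in IL06 of pool 3 and 11.8 RPM in IL04 of pool 4. Fewer cells thus had the transporter transcript at 100 RPM or more than had it under 10 RPM.

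Neurod2 ranged from 0 to 1343 RPM, with a median of 62.2 RPM (19.5 to 129.7) and quartiles of 4.52 and 148.9 RPM. It reached 100 RPM in 23 cells and 500 RPM in 4. The 4 cells were IL09 of pool 1 (1343 RPM), IL06 of pool 3 (733 RPM), IL06 of pool 1 (669 RPM) and IL09 of pool 5 (502 RPM). No read was found in 3 cells, IL06 of pool 2, IL12 of pool 1 and IL09 of pool 4, with upper limits of 2.13, 13.3 and 9.26 RPM.

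Neurod6 ranged from 0 to 1458 RPM, with a median of 63.5 RPM (13.6 to 170.5) and quartiles of 7.15 and 340 RPM. It reached 100 RPM in 22 cells and 500 RPM in 7, of which 3 were in pool 4. Its highest levels were 1458 RPM in cell IL01 of pool 4, 1364 RPM in cell IL05 of pool 3 and 1197 RPM in cell IL09 of pool 4. Only cell IL05 of pool 5 had no read of it, which allowed up to 3.89 RPM. For each gene a few cells carried much of the total. The 5 highest cells held 40.9% of the summed RPM of Slc17a7, 49.7% of that of Neurod2 and 48.4% of that of Neurod6.

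**Figure D1:**
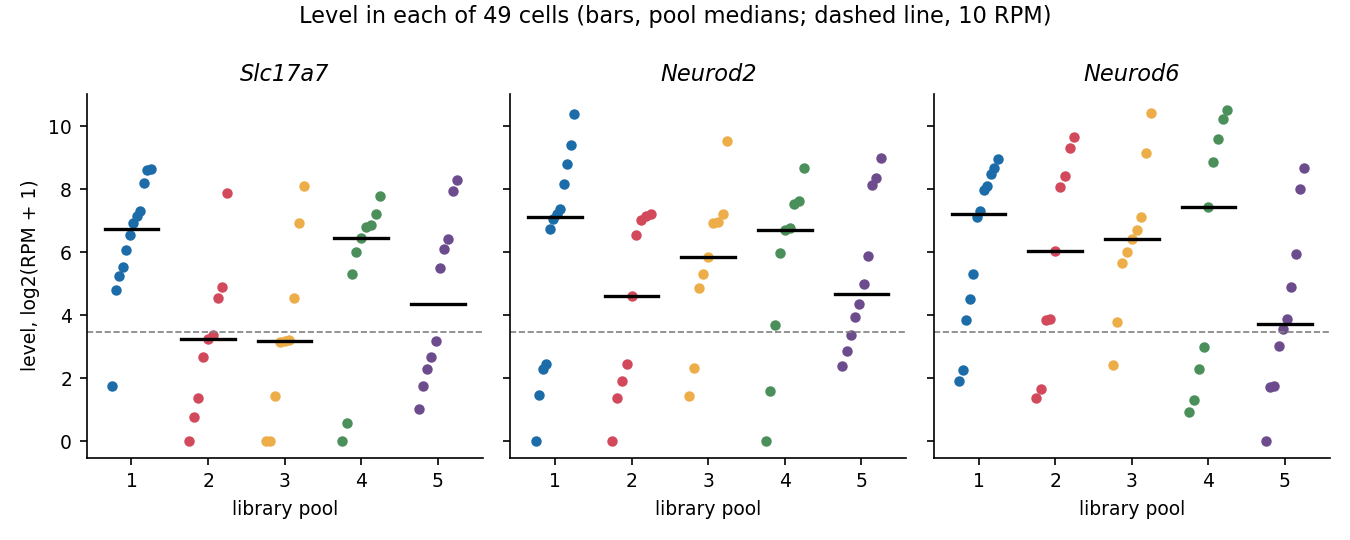
Level of Slc17a7, Neurod2 and Neurod6 in each of 49 cells, as log2(RPM + 1) on the vertical axis, by library pool on the horizontal axis. Points are cells, bars are pool medians and the dashed line marks 10 RPM. Every pool holds cells on both sides of that line for each gene, and the median of Slc17a7 lies below it in pools 2 and 3.

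The median of Slc17a7 was highest in pool 1, at 106 RPM, followed by pool 4 at 86.4 RPM and pool 5 at 26.2 RPM. Pools 2 and 3 were lowest, at 8.44 and 8.16 RPM. The exact 95% intervals of the medians did not overlap between pool 1 (36.99 to 292 RPM) and pool 2 (0.709 to 28.6 RPM), while every other pair of pools overlapped. How many of all genes show the same between these pools was not counted, and the intervals take the cells of a pool as independent. Without pool 1 the median over the other cells fell from 36.99 to 9.42 RPM, which was still within the interval over all cells (8.19 to 83.7 RPM). Pool 1 was also the deepest, with a median of 9870201 reads against 814366 to 1409643 in the other pools, and pool and depth were not separated. Neurod2 had pool medians from 23.4 to 139 RPM and Neurod6 from 12.2 to 171 RPM, and for these genes the intervals of all pools overlapped. Leaving out pool 5 raised the median over cells to 103 RPM for Neurod2 and to 104 RPM for Neurod6. According to the study's methods, cells of different collection days and depths in the cortex were mixed within a pool, so a pool is a sequencing unit and not an animal or a layer.

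At least 1 read of Slc17a7 was found in 45 of 49 cells (91.8%, exact 95% interval 80.4% to 97.7%), of Neurod2 in 46 (93.9%, 83.1% to 98.7%) and of Neurod6 in 48 (98.0%, 89.1% to 99.9%). Of all 9020 genes, 24.5% had at least 1 read in at least 45 cells. A single read is weak evidence of expression in this table. C1qb, a complement gene of microglia that neurons should lack, had at least 1 read in 38 of the same 49 cells (77.6%), with the same depths. It was the most frequent of 6 microglial genes, which had a read in a median of 21.5 cells. A limit of 10 RPM was therefore used for the rest, at which C1qb was counted in 11 cells (22.4%, 11.8% to 36.6%). The 6 microglial genes were counted in 5 to 11 cells. At this limit Slc17a7 was present in 29 cells (59.2%, 44.2% to 73.0%), Neurod2 in 34 (69.4%, 54.6% to 81.7%) and Neurod6 in 36 (73.5%, 58.9% to 85.1%). All 3 genes thus passed 10 RPM in at least 25 cells, as did 38.2% of all genes in the table. These intervals take the 49 cells as independent draws, although the cells are 1 sample in which several may come from the same animal, so they cover counting error only.

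Cell by cell, the 3 genes were often but not always found together. All 3 reached 10 RPM in 20 cells (40.8%, 27% to 55.8%), at least 2 in 35 cells (71.4%, 56.7% to 83.4%) and at least 1 in 44 cells (89.8%, 77.8% to 96.6%). The most frequent incomplete combination was Neurod2 with Neurod6 but without Slc17a7, in 8 cells (16.3%, 7.32% to 29.7%). Slc17a7 was found with Neurod6 only in 4 cells, with Neurod2 only in 3, and without either factor in 2. Neurod6 alone was found in 4 cells and Neurod2 alone in 3. Shallow cells were less certain in these counts, since 3 reads of Neurod2 stood for 14.3 RPM in IL08 of pool 5. Slc17a7 in IL04 of pool 4 and Neurod2 in IL12 of pool 1 had no read and were counted as absent. Their upper limits of 11.8 and 13.3 RPM lie above 10 RPM, so these calls are undetermined. At 100 RPM all 3 genes were present in 6 cells and none in 16, so the counts depended on the limit. With at least 1 read, all 3 were present in 41 cells and every cell had at least 2. Where reads also had to exceed 5% of those of the gene in the other cells of the pool, all 3 were present in 26.5% of cells and at least 2 in 38.8%.

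**Figure D2:**
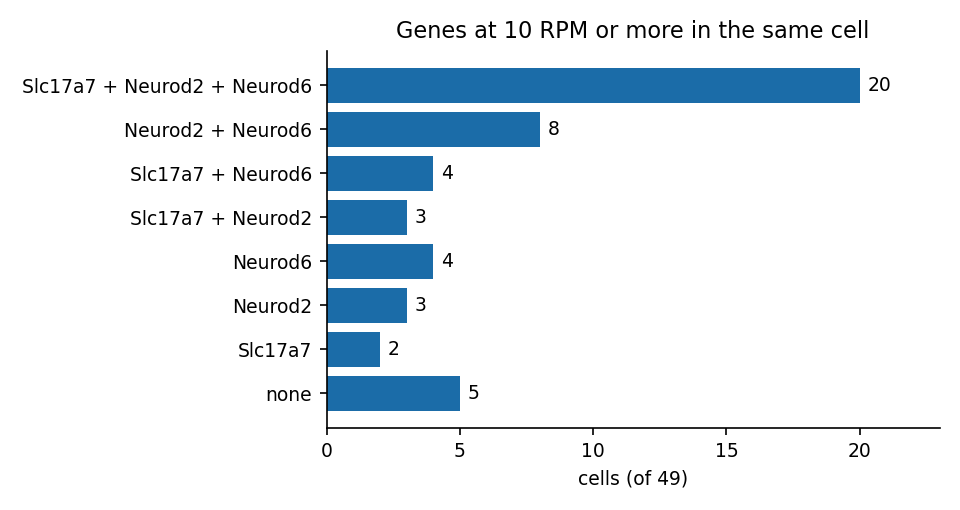
Number of cells, on the horizontal axis, in which each combination of Slc17a7, Neurod2 and Neurod6 reached 10 RPM or more, out of 49. The full combination was found in 20 cells, none of the genes in 5, and each of the 6 partial combinations in 2 to 8 cells.

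The levels of the genes rose and fell together to a moderate degree. Over the 49 cells the Pearson correlation of log2(RPM + 1) was 0.46 between Slc17a7 and Neurod2 (Spearman rho 0.44), 0.42 between Neurod2 and Neurod6 (rho 0.39) and 0.33 between Slc17a7 and Neurod6 (rho 0.30). These are descriptions over cells that share pools and differ in depth. Within single pools r ranged from 0.25 to 0.66 for the first pair, from 0.06 to 0.90 for the second and from -0.15 to 0.54 for the third, where pool 3 alone was below 0. The correlation with log10 reads per cell was 0.28 for Slc17a7, 0.42 for Neurod2 and 0.27 for Neurod6, as large as some of those between the genes, and the part of depth was not tested. For comparison, the median r over all other genes was 0.07 with Slc17a7, 0.10 with Neurod2 and 0.06 with Neurod6. Neurod2 had a correlation with Slc17a7 that 0.299% of all other genes reached or passed, and Neurod6 one that 3.79% did. A value of at least 0.3 with Slc17a7 was reached by 5.68% of genes, with Neurod2 by 8.49% and with Neurod6 by 6.6%.

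**Figure D3:**
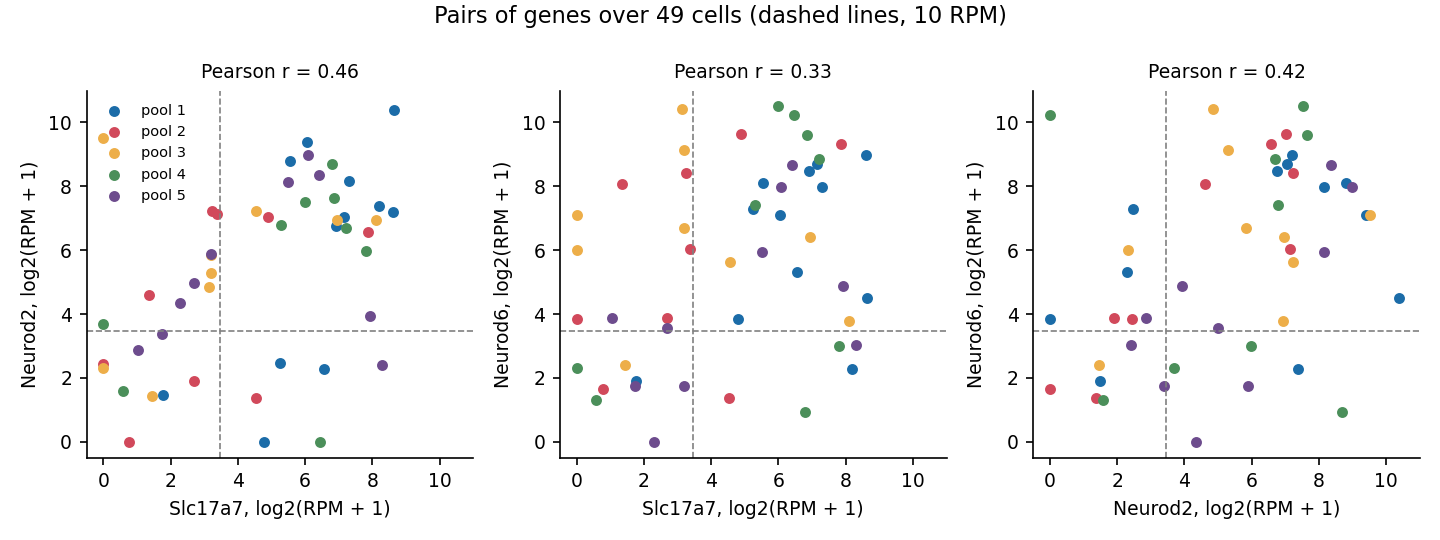
Levels of each pair of genes, as log2(RPM + 1) on both axes, in 49 cells coloured by library pool, with dashed lines at 10 RPM. Cells scatter widely around a positive relation (Pearson r of 0.46, 0.33 and 0.42 from left to right), and several high cells for 1 gene lie near 0 for the other.

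Single cells showed how far the genes could part. Cell IL06 of pool 3 had 733 RPM of Neurod2 (362 reads) and 138 RPM of Neurod6 but no read of Slc17a7. Cell IL04 of pool 5 was the reverse, with 313 RPM of Slc17a7 (219 reads) beside 4.29 RPM of Neurod2 (3 reads) and 7.15 RPM of Neurod6 (5 reads). Cell IL09 of pool 4 had 1197 RPM of Neurod6 (388 reads) and 86.4 RPM of Slc17a7 but no read of Neurod2. In cell IL05 of pool 4, 411 RPM of Neurod2 (460 reads) and 111 RPM of Slc17a7 stood beside 1 read of Neurod6. A deeply sequenced cell, IL11 of pool 1 with 13841649 reads, had 4037 reads of Slc17a7 and 2294 of Neurod2 but 53 of Neurod6, or 3.83 RPM. These cells were named after their values were seen.

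The balance of the paralogs Neurod2 and Neurod6 was measured as the share of Neurod2 in the reads of both, in the 35 cells with at least 20 such reads. The share is not corrected for how well each transcript is captured, so it compares cells and not genes. Reads carried no molecular identifiers and may be copies of few molecules, so the interval of a cell is narrower than its true error. It ran from 0% in cell IL09 of pool 4 (0 of 388 reads, exact 95% interval up to 0.946%) to 99.8% in cell IL05 of pool 4 (460 of 461 reads, 98.8% to 99.99%), with quartiles of 16.1% and 78.7% and a median of 39.3%. The cell at the median, IL01 of pool 1 (35 of 89 reads), had 1.79 RPM of Neurod2 and 2.76 RPM of Neurod6, both under 10 RPM. The share was under 10% in 6 cells, between 10% and 90% in 24, this cell among them, and over 90% in 5. The intermediate cells were thus the majority, and each of the 35 cells except IL09 of pool 4 had reads of both factors. In some cells this rested on few reads, such as 1 Neurod6 read in IL05 of pool 4 and 2 Neurod2 reads in IL01 of pool 3. Among the 17 cells with at least 1000 reads of both, the share ran from 2.0% (39 of 1949 reads, IL05 of pool 3) to 98.4% (1660 of 1687 reads, IL09 of pool 1), with a median of 44.5%. Both ends of the range were found within pools. Pool 1 ran from 2.81% to 98.4%, pool 3 from 2.0% to 90.6% and pool 4 from 0% to 99.8%. Cells of pool 5 ran from 44.5% to 96.2% and those of pool 2 from 8.02% to 68.7%.

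**Figure D4:**
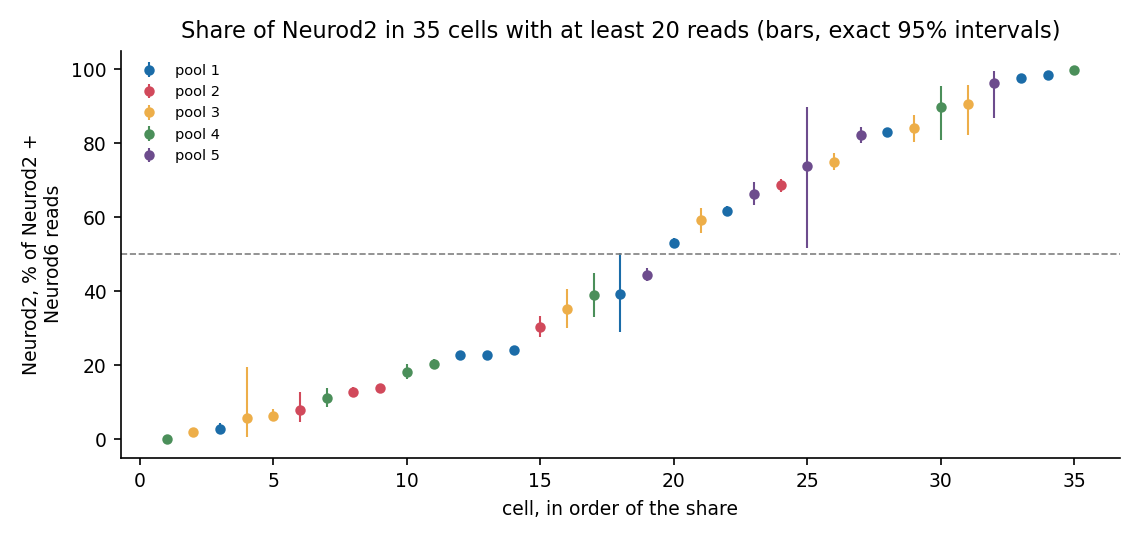
Reads of Neurod2 as a percent of the reads of Neurod2 and Neurod6 together, on the vertical axis, in 35 cells ordered by that share and coloured by pool, with exact 95% intervals over reads, which are not independent molecules, and a dashed line at 50%. The share covers the whole range from 0% to 99.8%. The interval of 1 cell includes 50%, namely IL01 of pool 1, which has both genes under 10 RPM.

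Of the vesicular glutamate transporters listed, Slc17a6 was the other one in the table, and Slc17a8 was not analysed here. Slc17a6 ranged from 0 to 335 RPM, with a median of 0.592 RPM, and reached 10 RPM in 12 cells (24.5%, 13.3% to 38.9%). It was present with Slc17a7 in 9 of these cells and without it in 3, while 20 cells had Slc17a7 alone and 17 neither. The 3 cells with Slc17a6 alone all had Neurod2 and Neurod6 at 10 RPM or more. One of them, cell IL04 of pool 2, had 299 RPM of Slc17a6 (191 reads) and 1 read of Slc17a7. In 32 cells with at least 20 reads of both transporters together, the share of Slc17a6 had a median of 1.15%, was under 1% in 16 cells and was over 50% in 9. Cell IL07 of pool 1 had 13674 reads of Slc17a7 and 5 of Slc17a6 (0.0366%, 0.0119% to 0.0853%), whereas cell IL11 of the same pool had 4037 and 4641 reads (53.5%, 52.4% to 54.5%). The correlation between the transporters over cells was 0.17, and that of Slc17a6 with Neurod2 and Neurod6 was 0.24 and 0.19.

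Of the bHLH factors and the upstream factors of this lineage, 3 of 8 listed genes were in the table. Besides Neurod2 and Neurod6 this was Bhlhe22, a bHLH repressor of cortical neurons, which reached 10 RPM in 22 cells (44.9%, 30.7% to 59.8%). Neurod2 was present in 19 of the 22 cells with Bhlhe22 (86.4%) and in 69.4% of all cells, and Neurod6 likewise in 19 of them. Over levels the correlation of Bhlhe22 was 0.15 with Neurod2, 0.13 with Neurod6 and 0.02 with Slc17a7. The E proteins, with which NeuroD factors dimerise, were represented by Tcf4, with a median of 854 RPM and at least 10 RPM in each of the 49 cells, and Tcf12, present in 13 cells. Neither had a correlation of 0.3 with a NeuroD gene, and the value of Tcf4 was -0.26 with Neurod6 and 0.06 with Neurod2. Of the Id proteins, which bind E proteins and keep bHLH factors from DNA, all 4 were in the table. Id2 was present in 36 cells with a median of 79.3 RPM, and Id3 in 10 cells. None of the 4 had a correlation of at least 0.3 with any of the 3 genes, and the lowest value was -0.39, between Id3 and Slc17a7.

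The 6 genes followed here that supply or take up glutamate and its precursors reached 10 RPM in 25 to 38 cells. They included Got1, an aspartate aminotransferase, in 38 cells, the glutamine carrier Slc38a2 in 35 and glutamate dehydrogenase, Glud1, in 34. Their correlations with Slc17a7 ranged from -0.04 to 0.39, with a median of 0.04 against 0.07 over all genes. Only Slc38a2 passed 0.3 with Slc17a7 (0.39), and none did with Neurod2, while 1 did with Neurod6. That gene was Got2, the mitochondrial aminotransferase (0.34), named after its value was seen.

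Other genes of cortical excitatory neurons mostly had positive correlations with the 3 genes. Of 10 such genes, 5 had a correlation of at least 0.3 with Slc17a7, 5 with Neurod2 and 4 with Neurod6, beside 5.68%, 8.49% and 6.6% of all genes, and their median r was 0.31, 0.32 and 0.27. Arpp21, a regulator of calmodulin signalling at 10 RPM or more in 45 cells, had 0.51 with Slc17a7, 0.42 with Neurod2 and 0.23 with Neurod6. Nrgn, the calmodulin-binding protein of dendrites, had 0.33, 0.47 and 0.38, and Mef2c, an activity-dependent transcription factor, 0.17, 0.30 and 0.13. Camk2b was at -0.06 with Slc17a7 but at 0.33 with Neurod6. General neuronal markers also had positive medians, 0.20 with Slc17a7, 0.29 with Neurod2 and 0.28 with Neurod6. Single markers differed, from 0.49 for Rbfox3 to -0.13 for Map2 with Neurod2, where Map2 was at -0.23 with Neurod6. Both were named after their values were seen.

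Genes of cortical layers gave mixed values. Of 7 deep-layer genes, none reached 0.3 with Slc17a7 or with Neurod2, and 1 did with Neurod6, namely Tbr1, a T-box factor of layer 6 neurons, at 0.48. Tbr1 is also on the list of other genes of cortical excitatory neurons above, so this value is counted in both lists. Tbr1 was present in 16 cells, and 14 of them (87.5%) had Neurod6 at 10 RPM or more, beside 73.5% of all cells. Bcl11b, a factor of layer 5 output neurons, was present in 20 cells with correlations of -0.17, -0.02 and -0.02 with Slc17a7, Neurod2 and Neurod6. Foxp2, in 21 cells, had 0.20, 0.04 and 0.07 in the same order, and Ldb2, in 17, had -0.11, 0.01 and 0.18. Of 6 superficial-layer and intracortical genes, 5 had a positive correlation with Slc17a7, 5 with Neurod2 and 1 with Neurod6, beside 65.8%, 73.9% and 63.1% of all genes. One of the 6 reached 0.3 with Slc17a7 and with Neurod2, and none did with Neurod6. It was Lhx2, a homeobox factor named after its value was seen, at 0.43 with Slc17a7, 0.38 with Neurod2 and 0.16 with Neurod6. Cux2 and Cux1, homeobox factors of superficial layers present in 24 and 26 cells, were at -0.45 and -0.35 with Neurod6, while both lay between -0.14 and 0.08 with Slc17a7 and Neurod2. Cux2 was found at 10 RPM in 15 of 36 cells with Neurod6 (41.7%) and in 49% of all cells. Rorb, the nuclear receptor of layer 4, was present in 30 cells and had 0.20, 0.28 and -0.15. Pou3f3, present in 29 cells, had 0.05, 0.02 and -0.04 in the same order. Whether these correlations differed between Neurod2 and Neurod6 was not tested.

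None of the 3 genes reached 10 RPM in 5 cells (10.2%, 3.4% to 22.2%), 1 in each library pool. The share was 28.6% where a gene's reads also had to exceed 1% of those in the other cells of the pool, and 36.7% with 5%, limits chosen after seeing the data. They were IL01 of pool 1, IL06 of pool 2, IL07 of pool 3, IL08 of pool 4 and IL01 of pool 5, with 19533497, 1409643, 1160604, 3997036 and 424976 reads. The highest value of any of the 3 genes was 2.76 RPM in the first, 2.13 RPM in the second, 4.31 RPM in the third, 2.0 RPM in the fourth and 9.41 RPM in the fifth of these cells. Their reads of the genes amounted to between 0% and 0.501% of the reads of the same gene in the other cells of the pool, and whether they came from those cells was not tested. All 6 general neuronal markers were at 10 RPM or more in each of the 5 cells.

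Genes of GABA synthesis and release were read beside these values. Gad1, which makes GABA from glutamate, was at 152 RPM in IL01 of pool 1, 297 RPM in IL06 of pool 2, 249 RPM in IL07 of pool 3 and 250.4 RPM in IL08 of pool 4, but had no read in IL01 of pool 5. Slc32a1, the vesicular GABA transporter, was at 10.44, 185, 195, 129.8 and 28.2 RPM in the same order. Gad2, which also makes GABA, was at 254.8, 324, 1.72, 133.6 and 2.35 RPM. Other inhibitory neuron markers were also high in single cells of the 5. In the same order Vip was at 1475, 0, 6203, 0 and 82.4 RPM, and Sst at 0.461, 1.42, 0, 5288 and 0 RPM. Lhx6 was at 0, 365, 0, 383 and 0 RPM. Cell IL01 of pool 5 thus differed from the other 4, and it also had 4850 RPM of Nrgn against 67.4 to 119.8 RPM in them. At least 2 of Gad1, Gad2 and Slc32a1, a set picked after the values were seen, were at 10 RPM or more in 11 of 49 cells. Of these 11 cells, 4 had none of the 3 glutamatergic genes at that level, 3 had 1, 2 had 2 and 2 had all 3. Inhibitory and glutamatergic genes were thus read in some of the same cells. Whether RNA or reads from other cells had a part in this was not tested. Cell IL03 of pool 3 had 559 RPM of Gad1 and 807 RPM of Gad2 beside 22.4 RPM of Slc17a7, 148 RPM of Neurod2 and 49.1 RPM of Neurod6.

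**Figure D5:**
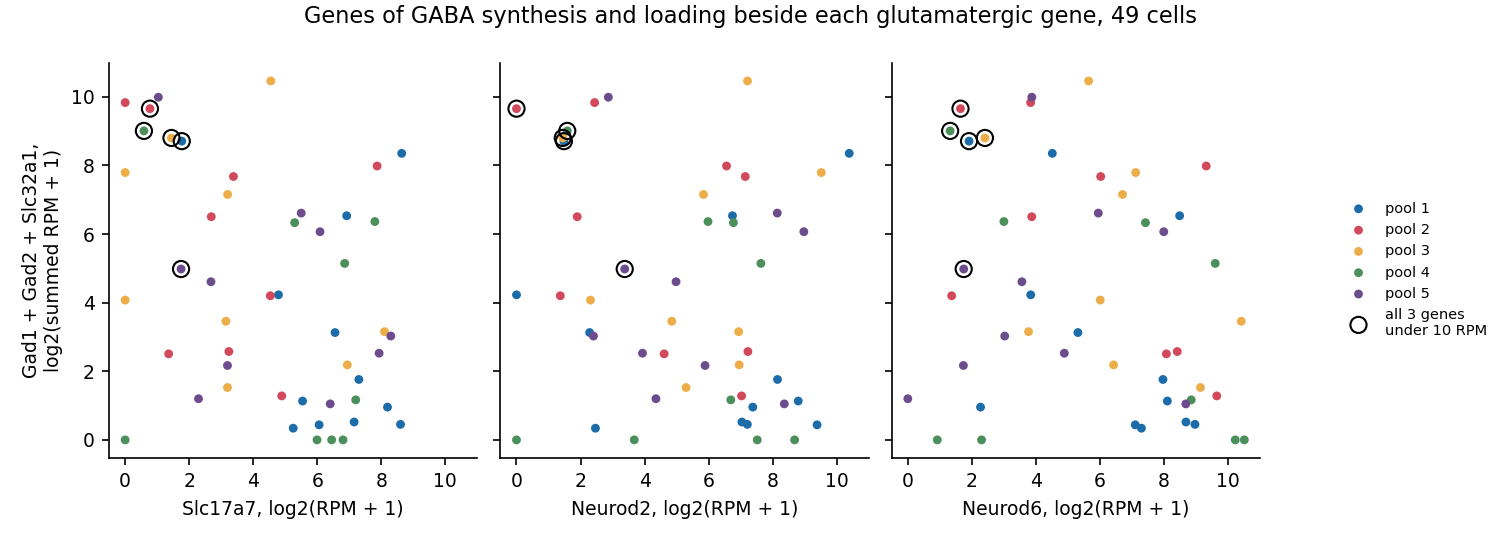
Summed level of Gad1, Gad2 and Slc32a1 on the vertical axis, as log2(RPM + 1), against the level of each glutamatergic gene on the horizontal axis, on the same scale, in 49 cells coloured by pool. Open circles mark the 5 cells in which all 3 glutamatergic genes were under 10 RPM, 4 of which lie high on the vertical axis, while 1, from pool 5, has a lower sum.

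The wider list of 13 inhibitory neuron markers, of which 11 were in the table, was read in many cells. At least 2 of its genes reached 10 RPM in 30 cells, which included all 5 cells with none of the glutamatergic genes and 11 of the 20 cells with all 3. Some of these calls were low beside the highest cell of the pool. In pool 5 Vip was at 8113 RPM in IL10 and at 11.7 to 82.4 RPM in every other cell. In pool 4 Sst was at 5288 RPM in IL08 and at 6.45 to 62.9 RPM in the others. The limits of 1% and 5% of a gene's reads in the other cells of the pool were not applied to these markers. Whether their reads came from other cells was not tested. The summed level of the list ranged from 5.12 to 9383 RPM, with a median of 225 RPM, and its correlation on the log2 scale was -0.29 with Slc17a7, -0.40 with Neurod2 and -0.22 with Neurod6. Single genes ranged from -0.47, for Gad1 with Slc17a7, to 0.30. The median r of the 11 markers was -0.30 with Slc17a7, -0.24 with Neurod2 and -0.26 with Neurod6. Values above 0 were found for 3, 1 and 2 of them, beside 65.8%, 73.9% and 63.1% of all genes. Npy and Vip, neuropeptide genes present in 22 and 20 cells, were at 0.13 and -0.23 with Neurod2. Slc17a7 was present at 10 RPM in 5 of 14 cells with Gad1 (35.7%), beside 59.2% of all cells, and Neurod6 in 10 of the 14 (71.4%), beside 73.5% of all cells. Slc17a7 was also less frequent in cells with Gad2 (36.4%), Slc32a1 (28.6%), Dlx1 (25%), Dlx2 (30%) and Vip (45%). It was in 0 of 6 cells with Lhx6, 0 of 5 with Dlx5 and 59.1% of those with Npy. Of the 11 markers, only Sst and Pvalb lay above the 59.2% of all cells. Slc17a7 was present in 11 of 14 cells with the neuropeptide gene Sst (78.6%) and in 6 of 6 cells with Pvalb, a calcium-binding protein gene, both named after their values were seen. The Sst cells with Slc17a7 included IL01, IL03, IL05 and IL09 of pool 4, at 13.6 to 20.7 RPM of Sst. IL04 of that pool, at 62.9 RPM of Sst, had no read of Slc17a7. Over the 11 markers the cells with Slc17a7 thus ranged from 0% to 100% of those with the marker.

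Markers of glia were found in some cells as well. The summed level of 6 microglial genes ranged from 0 to 4244 RPM with a median of 8.10 RPM, and its correlation was -0.14 with Slc17a7, 0.01 with Neurod2 and -0.39 with Neurod6. At least 2 of these genes reached 10 RPM in 9 cells, of which 5 had Neurod6, 6 had Neurod2 and 3 had Slc17a7. The summed level of 5 astrocyte genes ranged from 0 to 2816 RPM, with correlations of 0.19, 0.17 and -0.23 in the same order. Slc1a2, a glutamate transporter of astrocytes, was the most frequent of them, in 39 cells. The summed level of 4 oligodendrocyte lineage genes ranged from 0 to 3902 RPM, with correlations of -0.01, 0.03 and 0.15. Among these genes Mbp, which encodes a myelin protein, was present in 18 cells. Of the endothelial list 1 gene was in the table. The part of glial RNA in the levels of the 3 genes was not tested.

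Reads of hemoglobin, which comes from red blood cells, took up 68.8% of the reads of cell IL01 of pool 3 and at most 21.6% of those of any other cell. Relative to the reads on nuclear genes other than hemoglobin genes, Neurod2 in that cell was at 14.2 in place of 3.97 RPM and Neurod6 at 227 in place of 63.5 RPM, while Slc17a7 had no read. Over the 49 cells the share of mitochondrial reads ran from 0.0972% to 9.81%, and its correlation was -0.11 with Slc17a7, -0.32 with Neurod2 and -0.14 with Neurod6.

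The genes whose levels were most like those of the 3 were taken from 6074 genes with at least 10 RPM in at least 15 cells, by Pearson r of log2(RPM + 1) over the 49 cells. For Slc17a7 these were Ptprk, a receptor tyrosine phosphatase (0.54), Ap3m2, a subunit of a vesicle adaptor complex (0.53), Ints8, a subunit of the Integrator complex (0.52), Trbc2 (0.52) and Taf11, a component of the general transcription machinery (0.51). Among these genes Neurod2 ranked 25 and Neurod6 282 by likeness to Slc17a7. For Neurod2 they were the noncoding RNA 9130024F11Rik (0.73), the adenosine receptor Adora1 (0.60), Bcl11a, a zinc finger factor of cortical projection neurons (0.59), Camkv, a kinase-like calmodulin-binding protein (0.57), and Coro1a, an actin-binding protein (0.57). For Neurod6 they were Btbd10 (0.62), Cd24a, a surface protein of young neurons (0.60), Gap43, a protein of growing axons (0.60), Adora1 (0.57) and Ypel3 (0.57). Slc17a7 ranked 54 and Neurod6 110 by likeness to Neurod2, and Slc17a7 ranked 354 and Neurod2 73 by likeness to Neurod6. The r of 9130024F11Rik with Neurod2 stood above all others for any of the 3 genes. By Spearman's rho, 2 of the 5 genes stayed among the first 5 for each of the 3 genes, so the order near the top was loose. Of the 50 genes most like each, Slc17a7 and Neurod2 shared 5, Neurod2 and Neurod6 shared 8, Slc17a7 and Neurod6 shared 1, and the gene shared by all was Camkv.

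At the other end, chosen after the values were seen, the lowest r with Slc17a7 among these 6074 genes was that of Maf, a leucine zipper factor (-0.57, within pools -0.87 to -0.31). Maf was present in 21 cells, of which 9 had Slc17a7 at 10 RPM or more (42.9%, beside 59.2% of all cells). Among the cells with none of the 3 genes at 10 RPM, Maf was at 316 RPM in IL01 of pool 1 and 1295 RPM in IL06 of pool 2. It was at 333 RPM in IL07 of pool 3, 1572 RPM in IL08 of pool 4 and 2.35 RPM in IL01 of pool 5. The lowest r with Neurod6 was that of Abhd2, a lipid hydrolase (-0.49, within pools -0.85 to 0.10).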

How the data were processed

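Contents of 49 FT+ neurons were aspirated at P7. The authors prepared cDNA with the SMART-Seq v4 3′ DE kit, aligned reads to GRCm38 with STAR and counted them with HTSeq. Versions and annotation are not given in the sources used here. The deposited table holds RPM for 9020 genes, each of which reaches 100 RPM in at least 2 cells, so genes low in nearly every cell were not analysed. The kit has no molecular identifiers. The design of the kit favours 3′ ends, and values were not divided by length.

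Reads behind each RPM were recovered from its cell's lowest nonzero value, refined over other low ones. All recovered reads (100%) were whole to within 0.01. This was checked on simulated cells. Shares have exact Clopper-Pearson intervals at 95%, medians have exact order-statistic intervals, and log2 values have a pseudocount of 1. A count of 0 was given a limit of 3 reads. Correlations are Pearson r and Spearman rho of log2(RPM + 1) over cells, with no p. No count model was run, because the cells are 1 sample. Genes were given as present from 10 RPM.

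The 3 genes and all lists were chosen with earlier results of these data known. From each list, genes at 10 RPM or more in at least 10 cells could be named, at most 4 a list by number of cells, and 5 genes by likeness to each gene. Not all listed genes that met this were named, and the general neuronal markers were given mainly as a set. Named after their values were seen were Got2, Rbfox3, Map2, Lhx2, Sst, Pvalb, Gad2, Lhx6, Dlx1, Dlx2, Dlx5, Maf, Abhd2 and single cells. Some further genes are not reported here. Alternatives were other limits, thinning to 358412 reads, pseudocounts of 0.1 and 10, reads on nuclear genes other than hemoglobin genes, no filter, Spearman rho and leaving out each pool. Limits of 1% and 5% of a gene's reads in the other cells of the pool were chosen after seeing the data. Coordinates are from GENCODE M21 and promoters from RefSeq. The tools were scipy 1.17.1, pandas 2.3.3, numpy 2.4.6 and matplotlib 3.10.9 under Python 3.11.15.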

Additional observations from a re-analysis of the deposited data

How the results depend on the processing

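The shares depended mostly on the limit at which a gene was counted. With at least 10 reads, the share of cells with each of Slc17a7, Neurod2 and Neurod6 was 69.4%, and with at least 10 RPM it was 59.2%, 69.4% and 73.5%. Thinned to 358412 reads in the 44 cells that reached this depth, the share with a read of Neurod6 was 86.4%, and without library pool 5 it was 100%. The share with at least 2 of the 3 genes, 71.4% at 10 RPM, was 100% from 1 read, 98.0% at 1 RPM and 42.9% at 100 RPM. The share with all 3, 40.8% at 10 RPM, was 83.7%, 79.6% and 12.2%, and the share with none, 10.2%, was 0%, 0% and 32.7%. If reads above 1% of those in the other cells of the pool were also asked for, none of the genes was counted in 28.6% of cells, and above 5% in 36.7%, with all 3 in 26.5% and at least 2 in 38.8%.

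The other 42 of 63 alternatives for these shares stayed within the exact interval of the value reported. The correlations ranged over the alternatives from 0.39 to 0.54 for Slc17a7 and Neurod2, from 0.26 to 0.45 for Slc17a7 and Neurod6 and from 0.33 to 0.54 for Neurod2 and Neurod6. In the shallowest cell, with 209850 reads, 1 read stands for 4.77 RPM, so low levels of the 3 genes cannot be told from 0 there. No paired analysis was possible because there is 1 group.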
